A study of Homo sapiens with 7 samples.

Results

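Interferon response genes are the genes that cells switch on when interferons, secreted antiviral cytokines, bind their receptors. The module described here holds 37 of them, chosen by symbol from a fixed list, and all 37 were among the 33117 genes listed in each library, each under 1 Ensembl identifier. Their expression was read from RNA sequencing of 769-P, a long-established human clear cell kidney carcinoma line. The 7 libraries comprise 4 of Lat-M cells, labelled latent metastatic, and 3 of PA cells, whose letters are not spelled out. The Lat-M libraries are numbered 1-1, 1-2, 2-1 and 2-2 and are called Lat-M1 and Lat-M2 by their leading number, whose meaning the labels do not give. All cells are of this 1 line and were grown in the same medium with fetal bovine serum, with no interferon or other agent named in the labels. How Lat-M cells were derived, whether replicates are separate cultures, and which of 2 kits made which library are not stated, so the p-values speak to variation among libraries, possibly technical, and not among cultures.

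Type I interferons act through the receptor chains IFNAR1 and IFNAR2 and the kinases JAK1 and TYK2. Signalling leads to a complex of STAT2, IRF9 and a partner that binds the interferon-stimulated response element, or ISRE, in promoters. Interferon gamma acts through IFNGR1, IFNGR2, JAK1 and JAK2, and leads to binding at the gamma-activated site, or GAS. The products sense viral nucleic acid, degrade or sequester viral RNA, block entry at membranes and feed back on the pathway. Interferon alpha was long used as a treatment of renal cell carcinoma.

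Promoter sequences are shown, to let the response elements be read, for the members with the largest rises in Lat-M1 or Lat-M2 among those with a promoter entry, with IFIT1 added after its values were seen because it moved the other way. They are RefSeq windows of 300 bases around the gene's start on build GRCh38.p14, which differs from the submitters' hg19. The windows are chr1:89065159-89065458 (minus strand) for GBP1, chr11:320811-321110 (minus strand) for IFITM3 and chr1:78649539-78649838 (plus strand) for IFI44. They are chr12:112906712-112907011 (plus strand) for OAS1, chr12:112938224-112938523 (plus strand) for OAS3 and chr10:89392373-89392672 (plus strand) for IFIT1. Both strands were searched. Capitals mark the ISRE core, which is GAAA, any 2 bases and GAAA again (TTTC, 2 bases and TTTC when on the other strand), and the GAS core TTCNNNGAA, which reads the same on both strands.
GBP1: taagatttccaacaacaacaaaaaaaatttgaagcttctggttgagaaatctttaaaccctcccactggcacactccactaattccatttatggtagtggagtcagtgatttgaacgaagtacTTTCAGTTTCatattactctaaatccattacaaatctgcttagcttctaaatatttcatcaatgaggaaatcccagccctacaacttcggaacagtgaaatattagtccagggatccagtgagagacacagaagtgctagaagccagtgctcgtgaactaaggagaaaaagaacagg
IFITM3: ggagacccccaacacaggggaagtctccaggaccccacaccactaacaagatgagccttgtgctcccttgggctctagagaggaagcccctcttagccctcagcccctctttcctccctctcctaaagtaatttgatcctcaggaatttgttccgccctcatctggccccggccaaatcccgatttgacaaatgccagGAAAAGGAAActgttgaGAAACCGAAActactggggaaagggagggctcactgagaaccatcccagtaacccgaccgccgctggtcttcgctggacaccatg
IFI44: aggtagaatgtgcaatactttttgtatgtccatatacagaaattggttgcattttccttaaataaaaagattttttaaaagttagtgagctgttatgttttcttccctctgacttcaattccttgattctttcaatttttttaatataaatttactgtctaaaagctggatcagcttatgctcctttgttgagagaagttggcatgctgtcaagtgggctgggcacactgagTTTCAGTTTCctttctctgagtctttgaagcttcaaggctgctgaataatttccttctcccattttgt
OAS1: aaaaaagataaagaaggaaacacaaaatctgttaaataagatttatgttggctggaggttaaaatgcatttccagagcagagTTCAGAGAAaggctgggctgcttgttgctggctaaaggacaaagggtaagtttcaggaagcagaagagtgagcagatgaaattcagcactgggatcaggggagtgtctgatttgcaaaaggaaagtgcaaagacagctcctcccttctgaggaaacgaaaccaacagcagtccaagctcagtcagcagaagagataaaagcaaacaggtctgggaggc
OAS3: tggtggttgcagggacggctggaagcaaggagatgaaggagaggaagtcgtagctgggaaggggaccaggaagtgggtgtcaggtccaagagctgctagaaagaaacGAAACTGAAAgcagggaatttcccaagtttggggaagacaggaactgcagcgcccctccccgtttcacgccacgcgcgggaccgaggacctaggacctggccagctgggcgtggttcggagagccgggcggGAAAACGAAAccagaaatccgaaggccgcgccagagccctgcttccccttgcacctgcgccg
IFIT1: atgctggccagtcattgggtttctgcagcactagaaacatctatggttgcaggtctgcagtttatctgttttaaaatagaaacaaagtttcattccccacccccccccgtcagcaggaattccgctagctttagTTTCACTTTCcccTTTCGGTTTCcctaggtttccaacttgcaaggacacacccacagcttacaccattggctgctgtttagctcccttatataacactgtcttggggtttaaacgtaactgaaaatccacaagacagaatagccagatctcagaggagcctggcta

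The ISRE core lay 127 bases before the start in GBP1, 18 bases before it in IFI44, and at 2 places in IFITM3 (52 and 35 bases before), OAS3 (143 and 12) and IFIT1 (116 and 103). OAS1 held the GAS core 168 bases before its start and no ISRE core of these letters. Its window also held gaaacgaaa, a closer spacing of the repeats that this search did not count in any gene. Of the 37 members, 27 matched a promoter entry, by gene identifier or symbol. The ISRE core was in the windows of 18 of these 27, and in 3.57% of all 35116 windows and 4.38% of all 27305 genes. The GAS core was in 8 of the 27, and in 7.66% of all windows and 9.38% of all genes. Among members with an entry, the ISRE core was found in 6 of the 10 that rose in Lat-M1, in both that fell, in 3 of the 7 that did not pass, and in 7 of 8 that were too low to test. A match of letters is a description of the window and shows no binding.

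**Figure D1:**
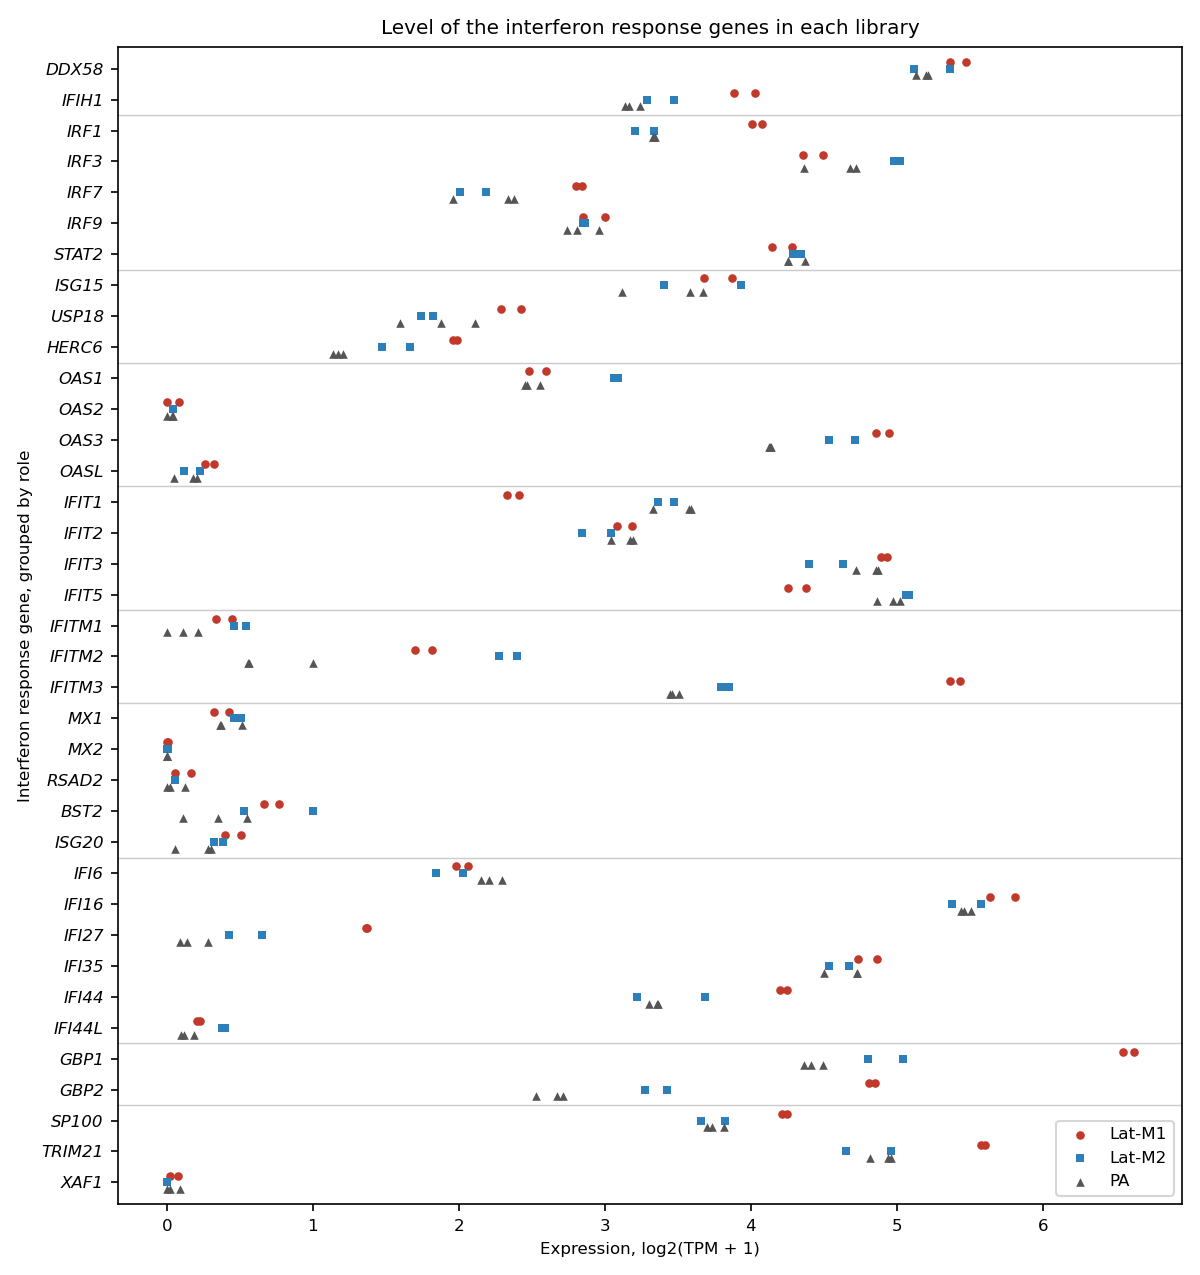
Level of each of the 37 interferon response genes in every library, as log2(TPM + 1), in rows grouped by role, with 2 Lat-M1, 2 Lat-M2 and 3 PA libraries as separate points. GBP1, GBP2 and IFITM3 have Lat-M1 points far to the right of both other groups, IFIT1 and IFIT5 have them to the left, and MX2, OAS2, RSAD2 and XAF1 lie at or close to 0 in every library.

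Levels are given as TPM, which scales each library to the same sum and corrects for transcript length, so levels of different genes can be set side by side. TPM keeps no read total, and the depth of the libraries is unknown. By mean TPM over the 7 libraries, 17 members stood at 10 or more, 9 between 1 and 10, and 11 under 1. The 26 members with a mean of at least 1 TPM were tested with limma on log2(TPM + 1) in a fit of all 16724 genes at that level, with Benjamini-Hochberg adjustment, and each log2 fold change is followed by its standard error. Genes reaching 1 TPM numbered 16136 to 16872 a library, and libraries within a group correlated at 0.9834 or more across tested genes. Abundant structural RNAs (RN7SL1, RN7SL2, RN7SK, RMRP) took 18.6 to 21.9% of TPM in Lat-M1, 22.9 to 27.7% in Lat-M2 and 29.5 to 31.8% in PA. Across all tested genes the median log2 fold change stood at 0.16 in Lat-M1 and 0.14 in Lat-M2 against PA, and at 0.0042 and -0.00054 after scaling by the median ratio. The part of the structural RNA share in the members' results was not tested beyond this scaling, and counts that it changes are given both ways.

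The cells carried the renal epithelial factor PAX8, at mean levels of 84.2 TPM in Lat-M1, 77.8 TPM in Lat-M2 and 71.5 TPM in PA. The 10 markers of the renal line summed to 3252 to 3411 TPM in Lat-M1, 2971 to 3331 TPM in Lat-M2 and 2974 to 3042 TPM in PA. Most of the sum was VIM, at means of 2369 TPM in Lat-M1, 2114 TPM in Lat-M2 and 2214 TPM in PA. The other markers did not move together. KRT8 averaged 91.9 TPM in Lat-M1, 193 TPM in Lat-M2 and 128 TPM in PA, and KRT18 263, 421 and 278 TPM. CDH2 averaged 421 TPM in Lat-M1, 263 TPM in Lat-M2 and 233 TPM in PA. Markers of leukocytes, a known source of interferon, were detected for few genes, and PTPRC and LYZ were at 0 in all Lat-M libraries. The sum of the 6 listed markers was 19.1 to 20.3 TPM in Lat-M1, 42.0 to 44.7 TPM in Lat-M2 and 47.0 to 50.2 TPM in PA, carried by CD68 and ITGAM. These went in opposite directions. CD68 averaged 14.8 TPM in Lat-M1, 40.7 TPM in Lat-M2 and 46.7 TPM in PA. ITGAM averaged 4.74 TPM in Lat-M1, 2.37 TPM in Lat-M2 and 1.64 TPM in PA. The 4 listed endothelial markers summed to at most 0.0853 TPM in any library. The 8 fibroblast and pericyte markers summed to 21.9 to 23.8 TPM in Lat-M1, 6.93 to 8.87 TPM in Lat-M2 and 5.18 to 5.54 TPM in PA, carried by COL1A1 and RGS5. COL1A1 averaged 19.9 TPM in Lat-M1, 3.32 TPM in Lat-M2 and 1.19 TPM in PA. RGS5 was lowest in Lat-M1, at 2.02 TPM beside 4.29 TPM in Lat-M2 and 3.71 TPM in PA. COL3A1 averaged 0.0138 TPM in Lat-M1, 0.00746 TPM in Lat-M2 and 0.00503 TPM in PA. The part of these markers in the members' results was not tested. In bulk samples, fewer cells of a type and less RNA per cell cannot be told apart.

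In Lat-M1 against PA, 14 of the 26 tested members rose and 2 fell. The largest rises were of the guanylate-binding proteins GBP1 and GBP2 and the membrane protein IFITM3, and both falls were in the IFIT family. The share of members that rose was 53.8%, beside 33.2% of all tested genes, and the share that fell was 7.69%, beside 11.6%. After scaling, 12 were higher and 5 lower, beside 4013 (higher) and 3840 (lower) of the 16724 genes: USP18 and IFI16 lost their calls, and IRF3, STAT2 and IFI6 were then called lower. The members' median log2 fold change was 0.40 (0.23 scaled). In Lat-M2 against PA, 7 members rose and none fell in limma, where 2 were lower at an unadjusted p under 0.05. The share that rose was 26.9%, beside 12.7% of all tested genes, and 2.24% of all genes fell. After scaling 6 were higher and 4 lower, beside 7.47% and 8.41% of all genes. The 4 lower were IRF1, IFIT2, IFIT3 and IFI6, and IRF3 lost its call. The members' median was 0.042 (-0.10 scaled). Both comparisons share the 3 PA libraries.

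**Figure D2:**
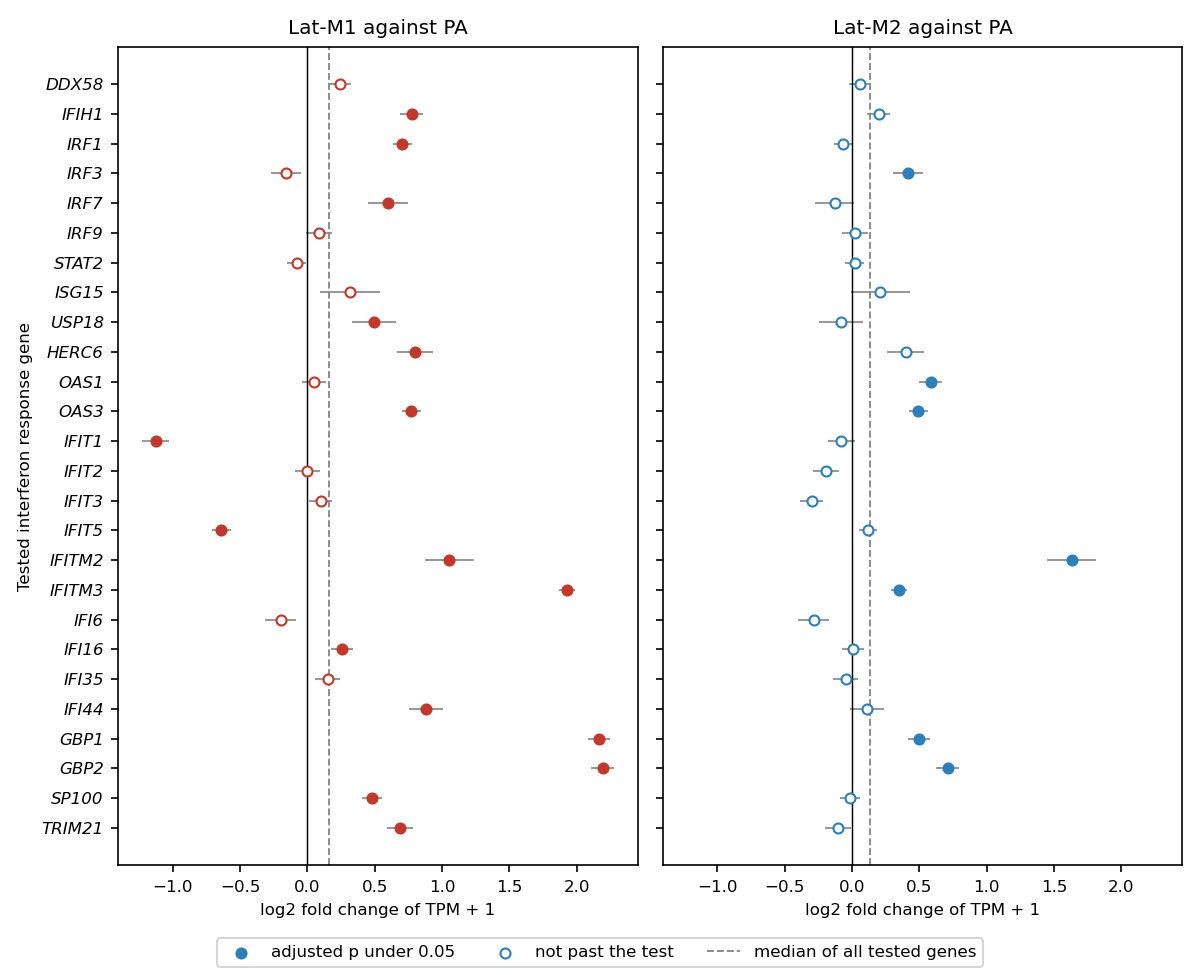
Log2 fold change of TPM + 1 (horizontal axis, bars 1 standard error) of the 26 tested interferon response genes in Lat-M1 against PA (left) and Lat-M2 against PA (right), with filled points past an adjusted p of 0.05 and a dashed line at the median of all tested genes. In Lat-M1 the points spread from -1.13 for IFIT1 to 2.19 for GBP2, and in Lat-M2 the highest is IFITM2 at 1.63.

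Sensors. DDX58, which encodes the RNA sensor RIG-I, stood at 40.2 and 43.3 TPM in Lat-M1, 40.1 and 33.8 TPM in Lat-M2, and 36.1, 34.0 and 35.7 TPM in PA. It did not pass in Lat-M1 (log2 fold change 0.24 ± 0.082, limma adjusted p = 0.0502), and scaling lowered the fold change to 0.065 (0.329). It passed without Lat-M2-1 (0.0144) or Lat-M2-2 (0.0143), and not without any PA or Lat-M1 library (0.0787 to 0.259). IFIH1, which encodes MDA5, a sensor of long double-stranded RNA, was at 13.7 and 15.3 TPM in Lat-M1, 10.1 and 8.76 TPM in Lat-M2, and 7.99, 8.44 and 7.81 TPM in PA. IFIH1 rose in Lat-M1 (0.77 ± 0.087, limma adjusted p = 0.000395), and its Lat-M2 values, though also above all PA values, missed the test (0.20 ± 0.087, limma adjusted p = 0.162).

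Transcription factors. IRF1, an activator induced through GAS elements, was at 15.1 and 15.8 TPM in Lat-M1, 9.10 and 8.23 TPM in Lat-M2, and 9.16, 9.07 and 9.06 TPM in PA. A rise was called in Lat-M1 (0.70 ± 0.069, limma adjusted p = 0.000216), where its values lay apart from both other groups. In Lat-M2 it did not pass (-0.065 ± 0.069, limma adjusted p = 0.551) and was lower on scaling alone (-0.20, scaled limma adjusted p = 0.0329). Its exons overlap those of C5orf56 on the other strand, a gene of 1.26 TPM on average. IRF7, which drives interferon alpha genes, was at 5.98 and 6.19 TPM in Lat-M1, 3.56 and 3.02 TPM in Lat-M2, and 2.89, 4.21 and 4.06 TPM in PA. Its rise in Lat-M1 (0.60 ± 0.15, limma adjusted p = 0.0140) ended without Lat-M1-1 (0.0604) or Lat-M1-2 (0.0829). IRF3, the factor activated directly by the sensors, was at 19.5 and 21.6 TPM in Lat-M1, 31.6 and 30.6 TPM in Lat-M2, and 19.6, 25.3 and 24.6 TPM in PA. Its rise in Lat-M2 (0.42 ± 0.11, limma adjusted p = 0.0487) was lost without any single library of the 7, where the limma adjusted p was 0.0568 to 0.218, and it was called lower in Lat-M1 without PA 1 (-0.27, limma adjusted p = 0.0295). On scaling IRF3 did not pass in Lat-M2 (0.27, scaled limma adjusted p = 0.134). It was lower in Lat-M1 on scaling (-0.33, scaled limma adjusted p = 0.0378) and did not pass there unscaled (-0.16, limma adjusted p = 0.281). Exons of IRF3 overlap those of BCL2L12 on the other strand, and whether reads were counted by strand is not stated. STAT2 and IRF9, of the ISRE-binding complex, did not pass the unscaled test in either comparison, and STAT2 was lower in Lat-M1 on scaling (-0.25, scaled limma adjusted p = 0.00355). STAT2 ranged from 16.7 to 19.7 TPM and IRF9 from 5.69 to 6.996 TPM over the 7 libraries, and the Lat-M values of each overlapped with PA.

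ISG15 conjugation. ISG15, a ubiquitin-like protein that is joined to other proteins, was at 11.8 and 13.6 TPM in Lat-M1, 14.3 and 9.58 TPM in Lat-M2, and 7.66, 11.7 and 11.0 TPM in PA. Its standard error, 0.22 on the log2 scale, was the largest of the 26, and it did not pass in either comparison (limma adjusted p = 0.292 in Lat-M1 and 0.547 in Lat-M2). HERC6, of a family of ubiquitin and ISG15 ligases, was at 2.97 and 2.89 TPM in Lat-M1, 1.78 and 2.18 TPM in Lat-M2, and 1.31, 1.20 and 1.26 TPM in PA, with no overlap between the groups. It rose in Lat-M1 (0.80 ± 0.13, limma adjusted p = 0.00254), and in Lat-M2 it had a log2 fold change of 0.40 ± 0.13 (limma adjusted p = 0.0878). USP18, the protease that removes ISG15 and damps receptor signalling, was at 3.89 and 4.37 TPM in Lat-M1, 2.54 and 2.34 TPM in Lat-M2, and 2.03, 3.31 and 2.67 TPM in PA. Its rise in Lat-M1 (0.50 ± 0.16, limma adjusted p = 0.0418) held without PA 2 and ended without each of the other 6 libraries (0.0639 to 0.202), and on scaling (0.110).

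OAS family. The OAS enzymes make the oligoadenylate that activates the antiviral nuclease RNase L. OAS3, the member that responds best to long RNA, was at 28.0 and 29.9 TPM in Lat-M1, 25.3 and 22.2 TPM in Lat-M2, and 16.5, 16.6 and 16.4 TPM in PA. All 4 Lat-M values lay above all PA values, and the rise passed in Lat-M1 (0.77 ± 0.071, limma adjusted p = 0.000155) and in Lat-M2 (0.49 ± 0.071, limma adjusted p = 0.00817). OAS1 was at 4.58 and 5.06 TPM in Lat-M1, 7.50 and 7.36 TPM in Lat-M2, and 4.47, 4.52 and 4.89 TPM in PA. It rose in Lat-M2 (0.58 ± 0.086, limma adjusted p = 0.00908; 0.0646 without Lat-M2-1) and did not pass in Lat-M1 (0.048 ± 0.086, limma adjusted p = 0.684). OAS2, from the same gene cluster, reached at most 0.0625 TPM, and OASL, a relative without the enzyme activity, at most 0.252 TPM, so neither was tested.

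IFIT family. IFIT proteins bind viral RNA by its 5′ end and hold back its translation, and their genes lie side by side. IFIT1 was at 4.31 and 4.04 TPM in Lat-M1, 10.1 and 9.31 TPM in Lat-M2, and 10.9, 9.04 and 11.1 TPM in PA. It fell in Lat-M1 (-1.13 ± 0.10, limma adjusted p = 0.000142), where both values were under all others. IFIT5 was at 18.1 and 19.8 TPM in Lat-M1, 32.9 and 32.4 TPM in Lat-M2, and 31.5, 28.1 and 30.5 TPM in PA. It also fell in Lat-M1 (-0.64 ± 0.070, limma adjusted p = 0.000356) and did not pass in Lat-M2 (0.12 ± 0.070, limma adjusted p = 0.276). IFIT3, a partner that stabilises IFIT1, was at 28.7 and 29.6 TPM in Lat-M1, 23.8 and 20.1 TPM in Lat-M2, and 28.0, 25.3 and 28.3 TPM in PA. Its Lat-M2 values lay below PA and missed the test without scaling (-0.30 ± 0.087, limma adjusted p = 0.0595), while it was lower after scaling (-0.45, scaled limma adjusted p = 0.00626). IFIT2 lay between 6.18 and 8.16 TPM in all libraries, and it was lower in Lat-M2 on scaling alone (-0.33, scaled limma adjusted p = 0.0458, and 0.202 without it). IFIT2 shares exons with another gene on the same strand, so its value is uncertain.

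IFITM family. These small membrane proteins block the fusion of viruses with cells. IFITM3 was at 40.2 and 42.1 TPM in Lat-M1, 13.4 and 12.9 TPM in Lat-M2, and 9.91, 10.4 and 10.0 TPM in PA. The groups did not overlap, and it rose in Lat-M1 (1.92 ± 0.060, limma adjusted p = 9.16e-07) and by less in Lat-M2 (0.35 ± 0.060, limma adjusted p = 0.0136; 0.0699 without Lat-M2-1). IFITM2 was at 2.52 and 2.25 TPM in Lat-M1, 3.84 and 4.28 TPM in Lat-M2, and 0.472, 0.999 and 0.476 TPM in PA. IFITM2 rose in Lat-M1 (1.05 ± 0.18, limma adjusted p = 0.00292) and in Lat-M2 (1.63 ± 0.18, limma adjusted p = 0.00284), the only member past the test and 2-fold in Lat-M2. IFITM2 averaged 0.649 TPM in PA and met the minimum mean of 1 TPM only through its Lat-M values, so its test is not independent of the rise. IFITM1 lay at 0.262 and 0.363 TPM in Lat-M1, 0.456 and 0.377 TPM in Lat-M2, and 0, 0.161 and 0.0823 TPM in PA, too low to test. The 3 genes are close in sequence, and how the submitters shared reads between them is not stated, so the split within the family is uncertain.

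Other virus restriction genes. The 5 members of this kind were all under a mean of 1 TPM. MX1, a dynamin-like GTPase and a common readout of type I interferon, lay between 0.251 and 0.430 TPM. MX2 reached at most 0.00747 TPM and RSAD2, which encodes viperin, at most 0.122 TPM. BST2, the tether that holds virus particles on the cell, was at 0.589 and 0.700 TPM in Lat-M1, 0.440 and 1.00 TPM in Lat-M2, and 0.276, 0.467 and 0.0794 TPM in PA. ISG20, an exonuclease, reached at most 0.422 TPM. In a fit without the minimum level none of the 5 passed in either comparison with PA.

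IFI genes. IFI44 was at 17.4 and 18.0 TPM in Lat-M1, 11.8 and 8.31 TPM in Lat-M2, and 9.28, 8.88 and 9.24 TPM in PA. IFI44 rose in Lat-M1 (0.88 ± 0.13, limma adjusted p = 0.00129). In Lat-M2 the 2 values fell on either side of PA, and it passed only without Lat-M2-2 (0.34, limma adjusted p = 0.0312, and 0.583 with all libraries). IFI16, a nuclear DNA sensor and the most abundant member in PA, was at 48.9 and 55.1 TPM in Lat-M1, 46.7 and 40.6 TPM in Lat-M2, and 42.5, 43.0 and 44.5 TPM in PA. Its small rise in Lat-M1 (0.26 ± 0.080, limma adjusted p = 0.0362) ended on scaling (0.155), without any of the PA libraries (0.0627 to 0.0880) and without Lat-M1-2 (0.247). IFI27, a mitochondrial and nuclear envelope protein, was at 1.59 and 1.58 TPM in Lat-M1, 0.568 and 0.342 TPM in Lat-M2, and 0.0989, 0.0628 and 0.214 TPM in PA. Its mean was under 1 TPM, and in the fit without that minimum it was the only 1 of the 11 low members that passed in Lat-M1 (1.20 ± 0.12, limma adjusted p = 0.00131). IFI6, a mitochondrial protein that blocks apoptosis, was at 2.94 and 3.17 TPM in Lat-M1, 3.07 and 2.59 TPM in Lat-M2, and 3.45, 3.62 and 3.91 TPM in PA. All 4 Lat-M values lay below PA, and both differences passed only after scaling (-0.34 and -0.40, scaled limma adjusted p = 0.0187 and 0.0282). IFI35 was at 25.6 and 28.1 TPM in Lat-M1, 24.6 and 22.2 TPM in Lat-M2, and 21.6, 25.5 and 25.5 TPM in PA. Its Lat-M1 values lay above both other groups, which overlapped, and it did not pass in Lat-M1 (0.15 ± 0.093, limma adjusted p = 0.234) or Lat-M2 (-0.045 ± 0.093, limma adjusted p = 0.770). IFI44L, a relative of IFI44, reached at most 0.318 TPM.

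Guanylate-binding proteins and the remaining members. GBP1 and GBP2 are GTPases that attack vacuoles of intracellular pathogens and respond strongly to interferon gamma. GBP1 was at 92.7 and 97.5 TPM in Lat-M1, 31.9 and 26.9 TPM in Lat-M2, and 21.5, 19.6 and 20.2 TPM in PA. GBP1 rose in Lat-M1 (2.16 ± 0.083, limma adjusted p = 2.45e-06), where it was the most abundant member, and in Lat-M2 (0.50 ± 0.083, limma adjusted p = 0.0129; 0.0582 without Lat-M2-1). GBP2 was at 27.0 and 27.8 TPM in Lat-M1, 9.73 and 8.68 TPM in Lat-M2, and 4.78, 5.37 and 5.55 TPM in PA. The order of the groups was the same, and it rose in Lat-M1 (2.19 ± 0.084, limma adjusted p = 2.42e-06) and in Lat-M2 (0.71 ± 0.084, limma adjusted p = 0.00384). TRIM21, a cytosolic antibody receptor and ubiquitin ligase, was at 46.7 and 47.6 TPM in Lat-M1, 30.1 and 24.2 TPM in Lat-M2, and 30.2, 29.7 and 27.1 TPM in PA, and rose in Lat-M1 (0.68 ± 0.096, limma adjusted p = 0.00113). SP100, a nuclear body protein, averaged 17.8 ± 0.345 TPM in Lat-M1, 12.4 ± 1.08 TPM in Lat-M2 (SD, n = 2 each) and 12.5 ± 0.554 TPM in PA (n = 3), and rose in Lat-M1 (0.48 ± 0.074, limma adjusted p = 0.00178). Part of its exons coincide with the pseudogene HMGB1P3 on the same strand, listed at 11.6 TPM on average, so the value of SP100 is uncertain. XAF1, which promotes apoptosis, reached at most 0.0652 TPM.

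**Figure D3:**
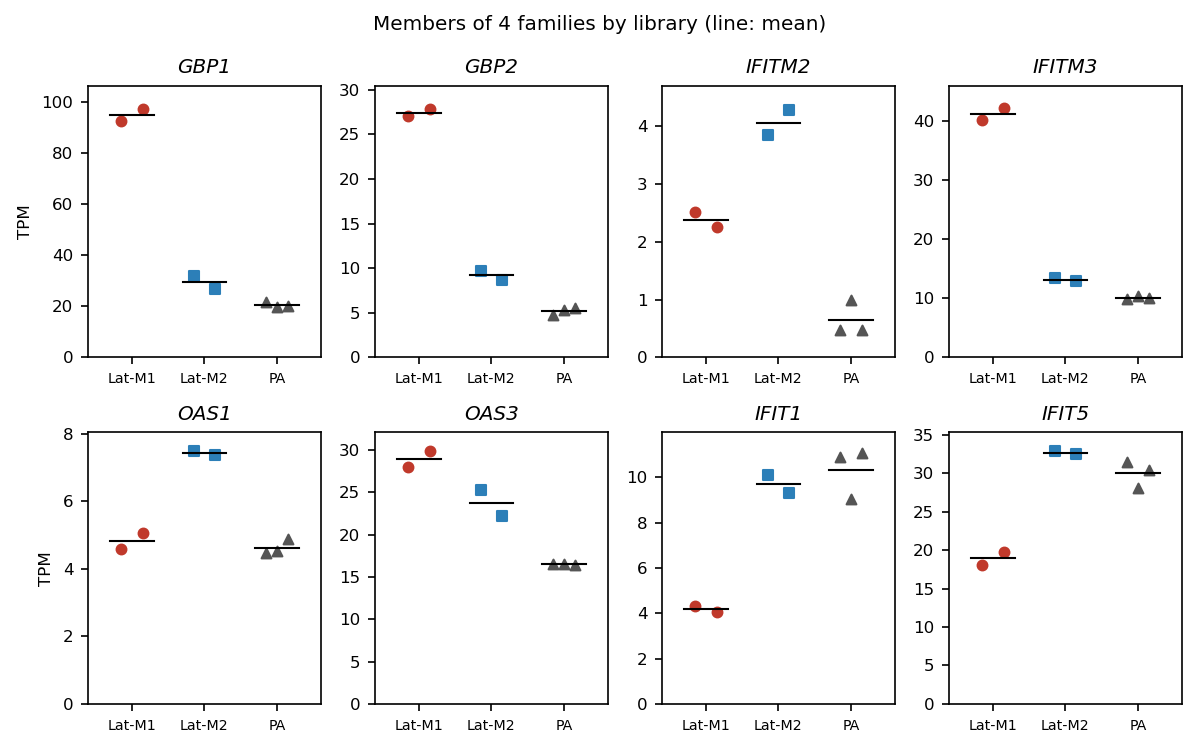
TPM of 8 members of 4 families in each library, with Lat-M1, Lat-M2 and PA from left to right and a line at the group mean. GBP1, GBP2 and IFITM3 are highest in Lat-M1 with Lat-M2 between it and PA, IFITM2 and OAS1 are highest in Lat-M2, and IFIT1 and IFIT5 are lowest in Lat-M1.

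Lat-M1 was also set against Lat-M2 directly, in the same fit. Of the 26 tested members 12 were higher in Lat-M1 and 4 lower, a share of 46.2% beside 20.1% of all tested genes, and of 15.4% beside 16.0%. After scaling 13 were higher and 4 lower, beside 22.6% and 21.6% of all genes, with IFI16 added (0.25 ± 0.088, limma adjusted p = 0.0645, and 0.22 scaled, scaled limma adjusted p = 0.00772). The members' median log2 fold change was 0.26 (0.24 scaled), and 0.011 (-0.011 scaled) over all tested genes. GBP1 (1.66 ± 0.091, limma adjusted p = 1.81e-05), IFITM3 (1.57 ± 0.065, limma adjusted p = 5.29e-06) and GBP2 (1.48 ± 0.092, limma adjusted p = 3.31e-05) differed most. TRIM21 (0.78), IFI44 (0.77), IRF1 (0.77), IRF7 (0.73), IFIH1 (0.58), USP18 (0.58), SP100 (0.49), IFIT3 (0.40) and OAS3 (0.28) were the others higher in Lat-M1. The members lower in Lat-M1 were IFIT1 (-1.05 ± 0.11, limma adjusted p = 0.000425), IFIT5 (-0.76 ± 0.077, limma adjusted p = 0.000343), IRF3 (-0.58 ± 0.12, limma adjusted p = 0.00948) and OAS1 (-0.54 ± 0.095, limma adjusted p = 0.00433). IFIT1 and IFIT5 on the one hand and IFIT3 on the other thus differed in opposite directions between Lat-M1 and Lat-M2. IFITM2 had a log2 fold change of -0.58 and missed the test (limma adjusted p = 0.0577; 0.0316 without PA 2). Leaving out a library ended the calls of USP18 (limma adjusted p = 0.0612 to 0.177 without PA 3 or without any Lat-M library), OAS3 (0.0526 without PA 3, 0.0659 without Lat-M1-1, 0.157 without Lat-M1-2 and 0.0898 without Lat-M2-2) and IFIT3 (0.0599 without Lat-M1-1, 0.0801 without Lat-M1-2 and 0.0544 without Lat-M2-2). It also ended those of IRF7 (0.0521 without Lat-M1-1, 0.0624 without Lat-M1-2 and 0.0658 without Lat-M2-2) and IRF3 (0.0605 without Lat-M1-1 and 0.0521 without Lat-M2-1). Without Lat-M1-1, Lat-M1-2 or Lat-M2-2, fewer members were higher, and fewer of all tested genes were too. Each of these fits keeps a single library in a Lat-M group.

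With all Lat-M libraries as 1 group, the comparison named by the study's design, 2 of the 26 tested members rose and none fell in limma, where 7 were higher and none lower at an unadjusted p under 0.05. The share that rose was 7.69%, beside 2.51% of all tested genes, and 0.389% of all genes fell. They were OAS3 (0.63 ± 0.10, limma adjusted p = 0.0375) and IFITM2 (1.34 ± 0.23, limma adjusted p = 0.0395), higher than PA in 4 of 4 Lat-M libraries. IFITM2 met the minimum mean for a test only through its Lat-M values. Each lost its call on scaling (0.0631 and 0.0660) and without each library except Lat-M2-2. GBP1 and GBP2, though above PA in all 4 Lat-M libraries, missed this test (limma adjusted p = 0.147 and 0.105). Without Lat-M2-2 there were 4 higher members, with GBP2 (0.0437) and IFI44 (0.0454) added. In that fit 1740 of all 16724 tested genes were higher, beside 420 with all libraries.

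The other genes of the pathway were followed through 5 lists, of which 55 different genes were tested. In Lat-M1 against PA 37 were higher and 4 lower (35 and 8 scaled), and their median was 0.49 (0.32 scaled) on the log2 scale. In Lat-M2 against PA 11 were higher and 3 lower (4 and 9 scaled), with a median of 0.16 (0.019 scaled). The shares of all genes called are those given above.

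Ligands, receptors and kinases. Of 11 interferon genes on the list 3 were listed in the files. IFNB1, the interferon beta gene, was at 0.224 and 0.117 TPM in Lat-M1 and was listed at 0 in both Lat-M2 and all 3 PA libraries, and IFNA5 reached at most 0.140 TPM. Both genes were too low to test, and values this near 0 cannot be compared between groups, since depth is unknown. IFNE, an interferon of epithelia that does not depend on infection, was at 0.128 and 0.532 TPM in Lat-M1, 2.88 and 2.76 TPM in Lat-M2, and 2.86, 2.01 and 2.66 TPM in PA. It fell in Lat-M1 (-1.41 ± 0.19, limma adjusted p = 0.000974) and did not pass in Lat-M2 (0.13 ± 0.19, limma adjusted p = 0.670). IFNE averaged 0.330 TPM in Lat-M1 and met the minimum mean of 1 TPM only through its Lat-M2 and PA values. Its test is therefore not independent of the fall. Receptor and kinase genes were higher for 9 of 12 tested in Lat-M1 and lower for none in limma, where JAK2 alone was lower at an unadjusted p under 0.05 and on scaling (7 higher and 1 lower scaled). In Lat-M2 1 was higher and 2 lower (1 and 6 scaled). IFNGR2, a chain of the interferon gamma receptor, was at 96.9 ± 4.37 TPM in Lat-M1, 47.1 ± 0.595 TPM in Lat-M2 (SD, n = 2 each) and 57.9 ± 1.98 TPM in PA (n = 3). It rose in Lat-M1 (0.73 ± 0.057, limma adjusted p = 6.98e-05) and fell in Lat-M2 (-0.29 ± 0.057, limma adjusted p = 0.0201), so that the groups lay on either side of PA. IFNAR2 (0.84) and SOCS3 (1.04), an inhibitor of cytokine receptors, also rose in Lat-M1, and IFNAR2 shares exons with another gene on the same strand and is uncertain. In Lat-M2 SOCS3 was lower on scaling alone (-0.35 unscaled, limma adjusted p = 0.0613, and 0.0138 scaled). PTPN2, a phosphatase that damps cytokine receptor signalling, was the rise in Lat-M2 (0.30 ± 0.059, limma adjusted p = 0.0200).

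**Figure D4:**
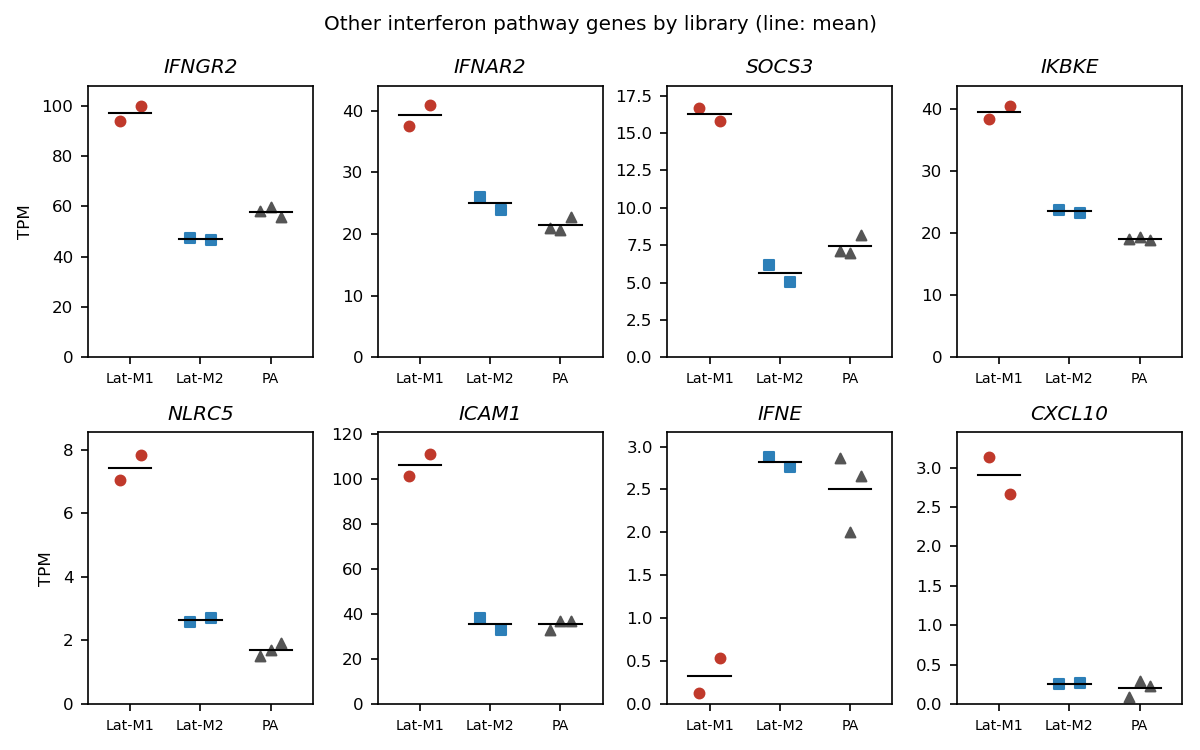
TPM of 8 other genes of the interferon pathway in each library, with Lat-M1, Lat-M2 and PA from left to right and a line at the group mean. IFNGR2 is above PA in Lat-M1 and below it in Lat-M2, and IFNE is under 0.6 TPM in Lat-M1 and at 2 TPM or more in the other libraries.

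Upstream sensing genes were higher for 8 of 12 tested and lower for 1 (MAVS) in Lat-M1 (8 and 2 scaled), and higher for 3 and lower for none in Lat-M2, where none was lower at an unadjusted p under 0.05 (none either way scaled). NLRC5, an activator of MHC class I genes, averaged 7.43 ± 0.552 TPM in Lat-M1, 2.64 ± 0.0948 TPM in Lat-M2 (SD, n = 2 each) and 1.71 ± 0.207 TPM in PA (n = 3). It rose in Lat-M1 (1.64 ± 0.12, limma adjusted p = 4.50e-05) and in Lat-M2 (0.43 ± 0.12, limma adjusted p = 0.0496; 0.0785 scaled). IKBKE, a kinase that activates IRF3 and IRF7, rose in Lat-M1 (1.01) and Lat-M2 (0.29, limma adjusted p = 0.0190; 0.0856 scaled), DDX60 (0.80) and TANK (0.69) rose in Lat-M1, and TBK1, the related kinase, rose in Lat-M2 (0.34 ± 0.082, limma adjusted p = 0.0355; 0.0698 scaled). TRAF3 in Lat-M2 had a log2 fold change of 0.26 (limma adjusted p = 0.0655).

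Of 25 tested genes on the list of other interferon-stimulated genes 18 were higher and 1 lower in Lat-M1 (18 and 3 scaled), and 7 higher and 2 lower in Lat-M2 (3 and 3 scaled). The scaled counts in Lat-M2 stand beside 7.47% higher and 8.41% lower of all tested genes. SLFN5 (1.55), PML (1.00), a nuclear body protein, and PARP14 (0.94) rose in Lat-M1, and SAMD9 (0.45), PLSCR1 (0.41) and TRIM5 (0.29) rose in Lat-M2. The rise of TRIM5 ended on scaling (scaled limma adjusted p = 0.129). SAMHD1, a nucleotide-degrading restriction factor, fell in Lat-M1 (-0.54 ± 0.083, limma adjusted p = 0.00170) and in Lat-M2 (-0.31 ± 0.083, limma adjusted p = 0.0498). Of the interferon gamma-linked list 3 of 6 tested were higher and 1 lower in Lat-M1 (3 and 1 scaled). In Lat-M2 the count was 0 in limma, with 1 higher and 1 lower at an unadjusted p under 0.05 and 1 lower on scaling. In Lat-M1 ICAM1 (1.55), CD274 (0.93), which encodes PD-L1, and WARS (0.40) rose, and NMI fell (-0.71). In Lat-M2 WARS (0.20), CD274 (-0.32), NMI (0.061) and IRF2 (-0.027) did not pass (limma adjusted p = 0.0695, 0.0675, 0.629 and 0.834), and CD274 was lower after scaling (0.0107). CXCL10, a chemokine, was at 3.13 and 2.67 TPM in Lat-M1, 0.252 and 0.260 TPM in Lat-M2, and 0.0876, 0.297 and 0.227 TPM in PA, under the minimum mean for a test. CIITA, which switches on MHC class II genes, reached at most 0.00845 TPM.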

How the data were processed

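The authors deposited 1 file per library holding gene-level TPM, as the values themselves show: each library has the same sum, and the lowest value above 0 of low genes (mean under 0.1 TPM) is lower for longer transcripts (rho -0.94, Spearman, over 7767 genes). Per the submitters' processing notes, TopHat2 2.2.4 and hg19 were used. The quantifier, annotation and filters are not given in the sources used here. Depth is unknown, so no counting interval or detection limit is given.

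Values were taken as log2(TPM + 1). Genes averaging 1 TPM or more were fitted with limma 3.58.1 in R 4.3.3 (trend and robust options): 1 fit of 3 groups (Lat-M1, Lat-M2, PA) for the comparisons between them, and 1 of 2 groups for Lat-M against PA. Calls are Benjamini-Hochberg adjusted p under 0.05 over all tested genes. Log2 fold changes understate changes of low genes. The fit was tested on simulated data. Scaling divides a library's values by its median ratio to the geometric mean.

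Members and gene lists were chosen with earlier results of these data known. All 37 members are named. Of the pathway lists, up to 4 genes with the smallest p in each comparison with PA are named, and CXCL10, CIITA, SAMHD1, MAVS and JAK2 were added after their values were seen. Overlapping exons were read from GENCODE v29 by gene identifier. Promoters came from RefSeq by gene identifier or, where that had no entry, by symbol. Protein sequences were not used here, and some genes that these rules would name are not reported here.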

Additional observations from a re-analysis of the deposited data

Results flagged for a closer look

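Lat-M1 differed from Lat-M2 by a direct test (limma, adjusted over all tested genes) in 16 of the 26 tested members. Of all 16724 tested genes, 3354 (20.1%) were higher in Lat-M1 and 2668 (16.0%) lower. The members' shares, and the calls that ended without a library, are given above. The log2 difference of Lat-M1 from Lat-M2 was positive for GBP1 (1.66), IFITM3 (1.57), GBP2 (1.48), TRIM21 (0.78), IFI44 (0.77), IRF1 (0.77), IRF7 (0.73), IFIH1 (0.58), USP18 (0.58), SP100 (0.49), IFIT3 (0.40) and OAS3 (0.28). It was negative for IFIT1 (-1.05), IFIT5 (-0.76), IRF3 (-0.58) and OAS1 (-0.54).

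Among the 4 Lat-M libraries, 1 stood apart for IRF9 in 26 members examined, Lat-M1-2 at 6.996 TPM beside 6.20, 6.28 and 6.22 TPM, a gap of 0.90 of the whole range on the log2 scale. Chance flags about 1 in 20 such groups. IRF9 shares exons with another gene on the same strand, and no call rests on it.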

How the results depend on the processing

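Of the called members, 13 of 16 in Lat-M1 against PA, 3 of 7 in Lat-M2 against PA, 11 of 16 in Lat-M1 against Lat-M2 and 0 of 2 in Lat-M against PA passed under every alternative in which they were tested (pseudocount 0.1, no minimum level, a minimum mean of 5 TPM, scaling, the replicate block and each library left out). No call changed direction. The causes of the changes below were not tested, except where fewer genes or libraries enter by construction.

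With at least 2-fold required, Lat-M1 against PA had 4 members higher and 1 lower, Lat-M2 against PA 1 higher, Lat-M1 against Lat-M2 3 higher and 1 lower, and Lat-M against PA 1 higher. The share of all genes at that cut was not computed, so these counts cannot be set against it. Scaling gave 5 lower in Lat-M1 against PA, 4 lower in Lat-M2 against PA and 0 higher in Lat-M against PA. The counts over all 16724 genes were 3840, 1407 and 114. A minimum mean of 5 TPM gave 1 lower in Lat-M2 against PA and 1 higher in Lat-M against PA, beside 344 and 473 of 11444 genes. No minimum gave 0 higher in Lat-M against PA, beside 76 of 32367 genes. Leaving out 1 library gave 11 to 14 higher and 2 to 3 lower in Lat-M1 against PA, 3 (without Lat-M2-1) to 7 higher in Lat-M2 against PA, 8 to 13 higher and 3 to 5 lower in Lat-M1 against Lat-M2, and 0 to 4 (without Lat-M2-2) higher in Lat-M against PA. Counts over all tested genes also changed with the library left out. Taken as a contrast in the 3-group fit, Lat-M against PA had 12 members higher and 2 lower, beside 5040 and 1066 of all 16724 genes. In the main fit of 2 groups 420 and 65 of all genes were higher and lower. Treating libraries of a Lat-M number as correlated repeats gave 0 members higher, beside 72 of all genes.

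No pairing by replicate number was seen: deviations from group means correlated between same-numbered libraries at -0.082 to 0.0312. In a Lat-M group of 2 libraries the deviations mirror each other, so both correlations of Lat-M1 with Lat-M2 are equal by construction. The values are thus not separate checks and cannot exclude a pairing. With the replicate number as a replicate block 12 members were higher and 2 lower in Lat-M1 against PA, beside 4515 and 1393 of all 16724 genes. In Lat-M2 against PA 5 were higher, beside 755 of all genes. In Lat-M1 against Lat-M2 10 were higher and 4 lower, beside 2690 and 2105 of all genes. In Lat-M against PA 0 members were higher, where 0 of all 16724 genes were called in either direction. Both members called in Lat-M against PA had a limma adjusted p of 0.372 under the block. Genes near 0 TPM cannot be compared, since depth is unknown.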
